A study of Manacus vitellinus and Taeniopygia guttata with 24 samples.

Results

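Antiandrogen treatment with flutamide was examined in the pectoralis (PEC) of zebra finches (Taeniopygia guttata). The comparison used 6 of the 24 libraries of the series, chosen by their titles and tissue: 3 flutamide libraries (titles marked minus) and 3 T-only libraries (titles marked plus), each from a different bird. Per the treatment protocol in the labels, the flutamide birds were implanted with flutamide and then with testosterone, and the T-only birds with a blank and then with testosterone, the second implant following a day after the first. All 6 birds therefore carried testosterone, and the contrast is between testosterone with and without flutamide. The sample characteristics instead list the flutamide birds as lacking testosterone. Since the titles do not name the drug, minus was read as flutamide with the help of the protocol. Birds were assigned at random and were male, per the same protocol. Their age, the implant doses and whether the testes were intact are not stated in the labels. The rest of the series holds the scapulohumeralis caudalis (SH), a shoulder muscle, of the same 6 finches, and both muscles of golden-collared manakins.

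Testosterone is the main circulating androgen of male songbirds, and androgens act on muscle largely by changing the transcription of target genes. Flutamide is a nonsteroidal antiandrogen that blocks this action without lowering the hormone itself. The pectoralis is the large breast muscle that powers the downstroke of the wing, and it is built mainly of fast fibres that also rely on oxidative metabolism in small songbirds.

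Levels are RPKM (reads per kilobase of gene, scaled to the total reads of the library) as deposited, and a gene that a library's table does not list was read as 0. The tables name genes by zebra finch Ensembl identifiers only, and 0 of the 13920 identifiers listed in finch matched the gene table used, that of a manakin assembly. Genes are therefore given by identifier, without symbol, position or function. For the same reason markers of fibre types or of other cells in the muscle were not examined. In whole muscle, fewer cells of a type and less RNA per cell cannot be told apart.

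The 6 PEC libraries held 14785755 to 23458937 reads, of which 68.7% to 73.7% lay in listed genes. Genes listed numbered 10790, 10874 and 11298 in the flutamide libraries, against 10882, 11600 and 10905 in the T-only libraries. The groups overlapped, at 10987 ± 272 in flutamide and 11129 ± 408 in T-only (SD, n = 3 each; exact permutation test, two-sided p = 0.5, where 3 against 3 birds cannot go below 0.1). The difference was -142 genes, and without T-only replicate 2 it had the opposite sign, at 93.8 genes. Altogether 13011 genes were listed in at least 1 PEC library and 9346 in all 6.

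The muscles were set apart by genes that had been chosen from earlier results of these data for doing so, so their values describe the libraries and do not check the labels. Such genes were few: 1 was at 10 RPKM or more in all 6 PEC libraries and over 10-fold above all 6 SH libraries, and 2 the other way. ENSTGUG00000006624 was at 0.212 RPKM in PEC T-only replicate 2 and at 0 in every other PEC library, against 24.9 to 55.4 RPKM in the 6 SH libraries. ENSTGUG00000006008 was at 19214 to 33016 RPKM in PEC, against 250 to 1661 RPKM in SH.

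Across all genes, 2 PEC libraries lay nearer to SH than the others did, and 1 of them lay nearer to SH than to its own muscle. The distance between 2 libraries was taken as the median absolute difference of log2(RPKM + 1) over the 8343 genes tested below. The median distance to the 6 SH libraries was 0.45 for flutamide replicate 3 and 0.39 for T-only replicate 2, against 0.54 to 0.62 for the other 4 PEC libraries. T-only replicate 2 was farther from the other PEC libraries, at a median of 0.48, than from SH, and its nearest library was SH flutamide replicate 3, at 0.34. Flutamide replicate 3 was at a median of 0.38 from the other PEC libraries, and each of the other 4 PEC libraries was also nearer to PEC (0.37 to 0.40) than to SH. Flutamide replicate 3 was nearest to the SH library of its own bird, at 0.292. That was the smallest distance of any pair of finch libraries, though only just below the 0.294 between SH T-only replicates 1 and 2. The genes used passed a filter on PEC levels, so genes found mainly in SH do not enter these distances. Flutamide replicate 3 and T-only replicate 2 were also the most deeply sequenced PEC libraries, with 23458937 and 19393932 reads. In T-only replicate 2, 717 genes stood over 2-fold above the median of the other 5 PEC libraries, against 179 to 254 genes in each of those 5. The part of depth or tissue make-up in this was not tested. Results are given below with all 6 libraries and, where they move, without 1 or both of these libraries.

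Treatment did not order the libraries. The distance was 0.36 to 0.41 within flutamide, 0.33 to 0.56 between treatments and 0.38 to 0.56 within T-only. The nearest PEC pair, at 0.33, joined a flutamide with a T-only library. Among the 10 pairs without T-only replicate 2 the range was 0.33 to 0.42, and with it 0.37 to 0.56. Put per gene, 8.97% to 22.3% of genes differed at least 2-fold between a flutamide and a T-only bird, and 9.82% to 20.2% between birds of 1 group.

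**Figure D1:**
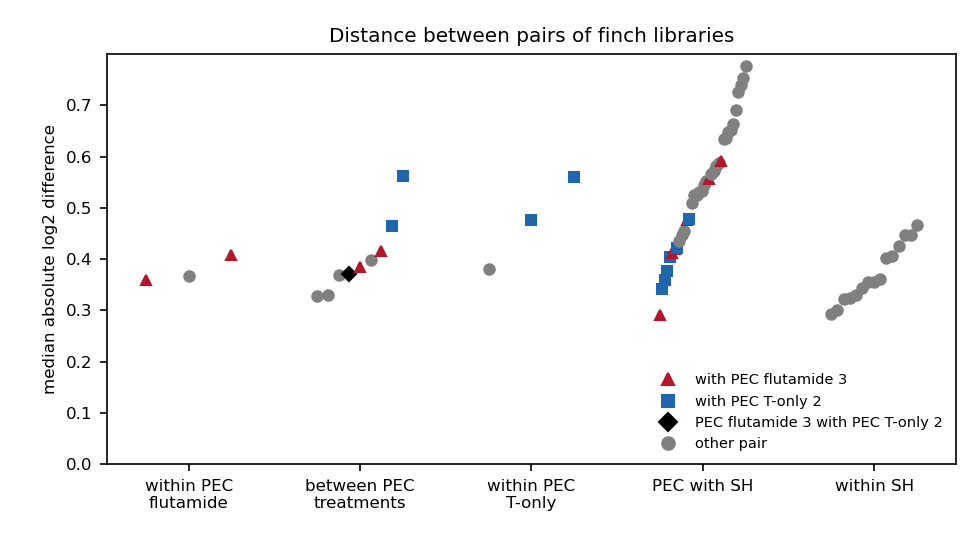
Each point is a pair of zebra finch libraries, and the y axis is the median absolute difference of log2(RPKM + 1) over the 8343 genes tested. Pairs between PEC treatments span 0.33 to 0.56 and pairs within a PEC group 0.36 to 0.56, and the 4 PEC pairs farthest apart (squares, 0.47 to 0.56) all include T-only replicate 2; its pair with flutamide replicate 3 (diamond) is at 0.37.

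The spread between replicates was compared as well. The median over genes of the SD of log2(RPKM + 1) was 0.33 among flutamide birds and 0.40 among T-only birds, and 61.1% of genes had the smaller SD in flutamide. The wider spread in T-only went with replicate 2: the pair of T-only libraries without it lay 0.38 apart, within the 0.36 to 0.41 of the flutamide pairs, and the T-only pairs with it lay 0.48 and 0.56 apart.

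No gene differed between flutamide and T-only PEC past the threshold. The test was limma on log2(RPKM + 1) over the 8343 genes at 1 RPKM or more in at least 3 of the 6 libraries, and a gene was called at a Benjamini-Hochberg adjusted p below 0.05. Genes called numbered 0, or 0.0% of those tested, and the smallest adjusted p was 0.0948. At an unadjusted p below 0.05 there were 370 genes, or 4.43%, with 157 higher (1.88%) and 213 lower (2.55%) in flutamide. limma-voom on reads recovered from the RPKM also called 0 genes, with 338 below the unadjusted threshold. The lean towards lower levels moved with 1 library and with the scaling. With all 6 libraries, median-ratio scaling gave 210 genes higher and 217 lower at the unadjusted threshold, and quantile scaling 221 higher and 210 lower. Both scalings centre the libraries on each other, which by construction pulls such a balance towards even. Without T-only replicate 2, 254 genes were higher and 163 lower, of 8056 tested. Without both libraries that lay nearer to SH, 191 were higher and 174 lower, of 7680 tested.

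Differences were small for most genes. The median difference, flutamide minus T-only, was -0.05 on the log2(RPKM + 1) scale, with quartiles of -0.25 and 0.16. It was 0.06 without T-only replicate 2 and 0.01 without flutamide replicate 2. A difference of 2-fold or more was seen in 90 genes higher (1.08%) and 135 lower (1.62%) in flutamide, and of 4-fold or more in 3 higher and 10 lower. Without T-only replicate 2 the 2-fold counts were 125 higher and 116 lower, of 8056 genes tested. The log2(RPKM + 1) scale understates changes at low levels, and with a pseudocount of 0.1 these counts were 228 and 318.

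The precision of 3 birds against 3 was a median standard error of 0.33, which gives a 95% interval reaching 0.73 to either side on the log2 scale. For 4603 genes (55.2%) the interval lay wholly inside a 2-fold change of RPKM + 1. For genes at low levels such an interval can still hold a change of more than 2-fold in RPKM itself. For 3740 genes it reached past 2-fold on at least 1 side, so a change of that size was not excluded there. The share inside 2-fold depended on the scale and on the number of birds: it was 29.1% with a pseudocount of 0.1, 33.5% with limma-voom and 31.4% to 49.0% with 1 library left out. In 10 genes the interval, unadjusted for the number of genes, lay wholly beyond 2-fold.

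**Figure D2:**
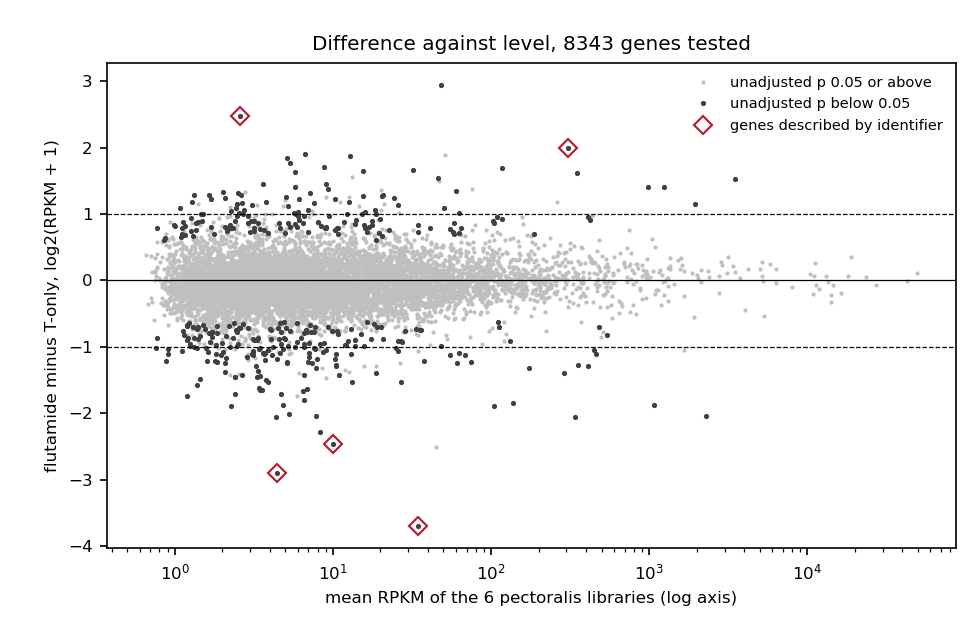
Each point is 1 of the 8343 genes tested, with its mean RPKM over the 6 PEC libraries on a log x axis and its difference, flutamide minus T-only, in log2(RPKM + 1) on the y axis; dashed lines mark 2-fold. Most points lie between the lines, with 90 genes at or above the upper line and 135 at or below the lower one, and diamonds mark the 5 genes described by identifier.

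Groups that did not overlap were seen in 664 genes (7.96%): the lowest flutamide library was above the highest T-only library in 284 (3.4%), and the highest flutamide library was below the lowest T-only library in 380 (4.55%). Of these genes, 37 were at least 2-fold higher and 71 at least 2-fold lower in flutamide. Where treatment makes no difference, 3 against 3 libraries separate fully with a probability of 0.1, and the share of 7.96% was not above that. With T-only replicate 2 left out, 1009 of the same 8343 genes were wholly higher and 586 wholly lower. Fewer libraries by themselves make full separation more likely. These counts can therefore not be set beside the 7.96% or read as a stronger difference.

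Genes are described singly where they had the smallest p in each direction. None of them passed the threshold, so the values are differences that were observed and not changes that were called. Their 95% intervals are unadjusted for the number of genes. Their separation follows in part from being picked by p in these same libraries. ENSTGUG00000012207 was at 341, 573 and 562 RPKM in the flutamide birds, against 147, 106 and 108 RPKM in the T-only birds. Every flutamide bird was above every T-only bird, and the reads behind these levels were plentiful, from 6155 to 14954 in flutamide and 1818 to 2731 in T-only. The difference was 2.00 ± 0.32 (SE) on the log2(RPKM + 1) scale, with a 95% interval of 1.30 to 2.70 and a limma adjusted p of 0.134. It lay between 1.80 and 2.25 over 17 alternative settings, with adjusted p from 0.0858 to 0.825. In SH of the same birds this gene was at 218, 569 and 532 RPKM in flutamide, against 219, 146 and 217 RPKM in T-only, so there 1 flutamide bird lay within the T-only range.

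ENSTGUG00000001849 was at 3.05, 2.89 and 1.32 RPKM in flutamide, against 15.7, 22.0 and 15.2 RPKM in T-only. The groups were far apart, with 14 to 23 reads in flutamide and 102 to 193 reads in T-only. The difference was -2.47 ± 0.32 (SE; 95% interval -3.19 to -1.76), and the limma adjusted p of 0.0948 was the smallest of the comparison. In SH this gene varied widely between birds, at 54.4, 4.09 and 7.82 RPKM in flutamide, against 157, 862 and 17.9 RPKM in T-only, and there the groups overlapped.

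The other 2 genes of the rule rested on few reads and on short recovered lengths. ENSTGUG00000017564, with a recovered length of 87 bases, had 13, 5 and 6 reads in flutamide PEC (9.38, 3.27 and 2.94 RPKM) and was listed in 0 of 3 T-only libraries. Set against a floor of 3 reads over the T-only group, it was 7.11-fold higher in flutamide (limma adjusted p = 0.128). That ratio leaves out the counting error of the flutamide reads. In SH it was listed in 1 flutamide library, at 4.26 RPKM, and in 2 T-only libraries, at 0.635 and 6.41 RPKM. With a pseudocount of 0.1 it passed the threshold in PEC (adjusted p = 0.0103). ENSTGUG00000018678, with a recovered length of 72 bases, had 0, 0 and 1 reads in flutamide, against 4, 17 and 11 reads in T-only. The ratio of reads per library total, flutamide over T-only, was 0.0278, with an exact 95% counting interval of 0.000682 to 0.166 (limma adjusted p = 0.128). Neither gene passed the filter on low values when 1 library of its higher group was left out.

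Of the 8343 genes tested in PEC, ENSTGUG00000008939 had the largest difference and was singled out after its values were seen. It was at 1.88, 1.32 and 6.15 RPKM in flutamide PEC, against 147, 24.3 and 27.1 RPKM in T-only PEC. The highest flutamide bird was below the lowest T-only bird, and T-only replicate 1 was far above the other 2 T-only birds. The difference was -3.70 ± 0.64 (SE; 95% interval -5.12 to -2.28), with a limma adjusted p of 0.189. Leaving out 1 library at a time moved it between -4.19 and -2.88, the smaller size being without T-only replicate 1.

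**Figure D3:**
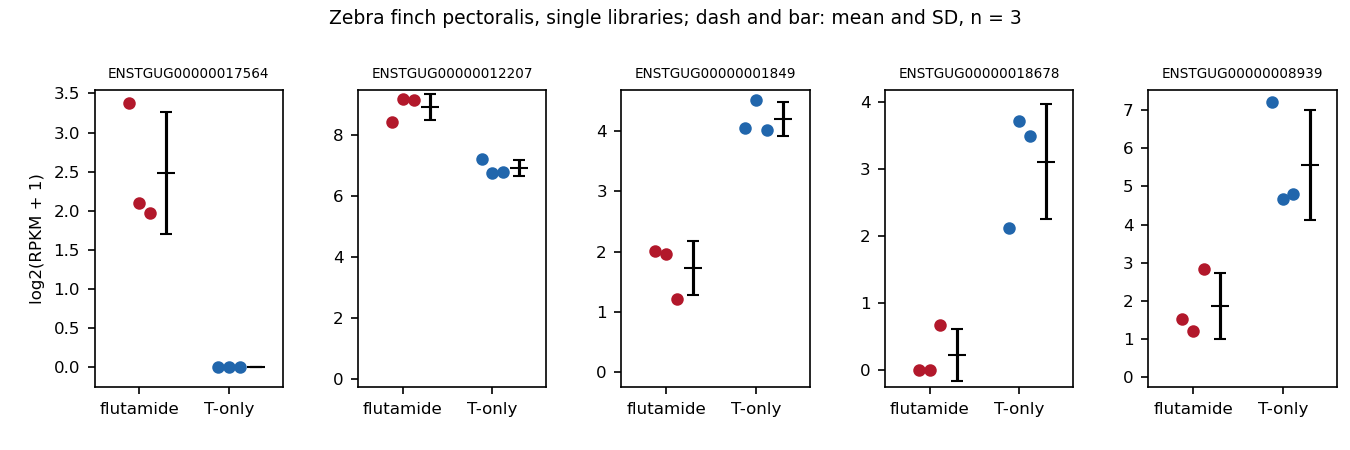
Single pectoralis libraries are shown as points in log2(RPKM + 1), 3 flutamide (left in each panel) and 3 T-only (right), with the mean and SD beside them; each panel has its own y axis. In all 5 genes the groups do not overlap, as in 7.96% of the genes tested, and no gene passed the adjusted threshold.

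Among the most abundant transcripts of the muscle, no gene set the groups apart. The 20 most abundant genes took 50.01%, 46.5% and 45.0% of all RPKM in the flutamide libraries, against 47.8%, 43.9% and 50.1% in the T-only libraries (exact permutation test, two-sided p = 0.9). ENSTGUG00000018747, the most abundant gene, was at 58749, 46712 and 46931 RPKM in flutamide, against 49188, 34689 and 60329 RPKM in T-only. Differences of the 20 genes ran from -0.32 to 0.36, with 9 higher in flutamide. Groups overlapped in all 20, and 0 of the 20 were below an unadjusted p of 0.05.

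The median difference varied with the level of a gene. It was -0.07 over 1301 genes under 2 RPKM, -0.07 over 2740 genes from 5 to 20 RPKM, 0.02 over 433 genes from 100 to 500 RPKM and 0.06 over 152 genes at 500 RPKM or more. This order was not seen without T-only replicate 2, where the median was 0.03 under 2 RPKM, 0.08 from 5 to 20 RPKM, 0.04 from 100 to 500 RPKM and -0.005 at 500 RPKM or more. Among the 152 genes at 500 RPKM or more, 4 were at least 2-fold higher and 3 at least 2-fold lower in flutamide, and 7 were below an unadjusted p of 0.05.

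Of the 13011 genes listed in at least 1 PEC library, few were listed throughout 1 group and nowhere in the other. Most of these had few reads. In flutamide, 27 genes were listed in all 3 libraries and in none of T-only, with a median of 13 reads over the 3 libraries and 47 at most, and a highest mean level of 5.20 RPKM. In T-only, 37 genes were listed in all 3 libraries and in none of flutamide, with a median of 15 reads over the 3 libraries and 371 at most, and a highest mean level of 36.2 RPKM. Of each set 1 gene passed the filter on low values.

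The same birds' SH libraries give the other side of the contrast. With the test run in the same way on the 6 SH libraries, 426 of 9184 genes (4.64%) were called, 4 higher (0.0436%) and 422 lower (4.59%) in flutamide. The SH test was run at this setting only. How its counts move with the scaling, the pseudocount or a library left out was not tested. The SH libraries held 8519, 8527 and 8515 genes at 1 RPKM or more in flutamide, against 9735, 9439 and 9096 in T-only. The part of this wider difference in the SH counts was not tested. The median standard error was 0.26 in SH and 0.33 in PEC. Over all genes tested the median difference was -0.21 in SH and -0.05 in PEC. Of the 422 genes lower in flutamide SH, 252 were tested in PEC, and 170 lay under the filter there. The 252 genes had a median difference of -1.57 in SH and -0.46 in PEC, beside -0.05 over all genes tested in PEC. In PEC, 51 of the 252 (20.2%) were lower below an unadjusted p of 0.05, beside 2.55% of all genes tested. Without T-only replicate 2 the PEC median of these genes was -0.35, beside 0.06 over all genes, and without both libraries that lay nearer to SH it was -0.35, beside 0.01. Both muscles came from the same birds, so a bird's own deviations and the treatment cannot be told apart in such a comparison.

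Whether the difference in PEC was unlike that in SH was tested as an interaction over the 12 finch libraries, taken as the difference in PEC minus that in SH. limma called 0 of 9606 genes (0.0%), and 738 (7.68%) passed the unadjusted threshold. limma-voom also called 0, and 482 passed unadjusted. With the bird as a block, since both muscles came from each bird, 0 genes were called and 1004 were below the unadjusted threshold. The interaction was positive in 708 of the 738 genes (7.37% of those tested) and negative in 30 (0.312%). That balance moved with the scaling: 504 were positive and 80 negative under median-ratio scaling, while quantile scaling gave 428 positive and 156 negative. The median interaction over all genes was 0.16 as deposited, -0.01 under median-ratio scaling and -0.07 under quantile scaling. Both scalings centre the libraries on each other, which by construction brings this median near 0, so their medians are no evidence on its sign. Without SH T-only replicate 1, 440 of 9342 genes tested passed the unadjusted threshold, in place of 738 of 9606. Without PEC T-only replicate 2, 1012 of 9553 passed it, 974 positive and 38 negative. Without both PEC libraries that lay nearer to SH, 871 of 9494 passed it, 828 positive and 43 negative. With any 1 library left out the count ran from 440 to 1012. For no single gene did the difference between muscles pass the adjusted threshold.

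ENSTGUG00000018460, which had the smallest p, was near 0 throughout PEC. It was at 0.405, 0 and 0 RPKM in flutamide PEC, against 0, 0 and 0.262 RPKM in T-only PEC. In SH it was at 0, 0.559 and 0 RPKM in flutamide, against 124, 14.3 and 25.9 RPKM in T-only. The interaction was 5.05 ± 0.79 (SE; limma adjusted p = 0.151), with an adjusted p of 0.108 to 0.979 over 18 alternative settings. This gene passed the filter on low values only through the SH T-only libraries, so it was not tested where 1 of them was left out. Its interaction sets the SH difference against levels near 0 in PEC. The next gene in that direction, ENSTGUG00000017822, was at 0, 2.23 and 0.666 RPKM in flutamide PEC and listed in 0 of 3 T-only PEC libraries. In SH it was listed in 0 of 3 flutamide libraries, against 2.60, 2.59 and 4.90 RPKM in T-only (limma adjusted p = 0.151). With a recovered length of 128 bases, these T-only levels rest on 7, 6 and 9 reads.

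In the opposite direction the 2 genes with the smallest p were at low levels. ENSTGUG00000018152 was at 0, 0 and 0.182 RPKM in flutamide PEC, against 0.780, 2.64 and 0 RPKM in T-only PEC. In SH it was at 1.05, 2.11 and 2.43 RPKM in flutamide, against 0, 0.236 and 0 RPKM in T-only (interaction -2.20 ± 0.54, SE; limma adjusted p = 0.266). ENSTGUG00000003539 was at 0.615, 1.68 and 1.46 RPKM in flutamide PEC, against 1.19, 2.02 and 2.32 RPKM in T-only PEC. In SH it was at 1.21, 3.33 and 0.931 RPKM in flutamide and was listed in 0 of 3 T-only libraries (limma adjusted p = 0.292).

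ENSTGUG00000008939, the gene with the largest difference in PEC, did not stand apart between the muscles. In SH it was at 5.19, 8.91 and 52.5 RPKM in flutamide, against 376, 190 and 210 RPKM in T-only, a difference of -4.06 ± 0.72 (SE) that was called there (limma adjusted p = 0.0268). The highest flutamide library was again below the lowest T-only library. The interaction was 0.36 ± 1.11 (SE, limma adjusted p = 0.9998), with a 95% interval of -2.03 to 2.75. That interval is too wide to show that the muscles responded alike. It comes from the fit without the bird as a block, and the interval with that block is not given here.

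**Figure D4:**
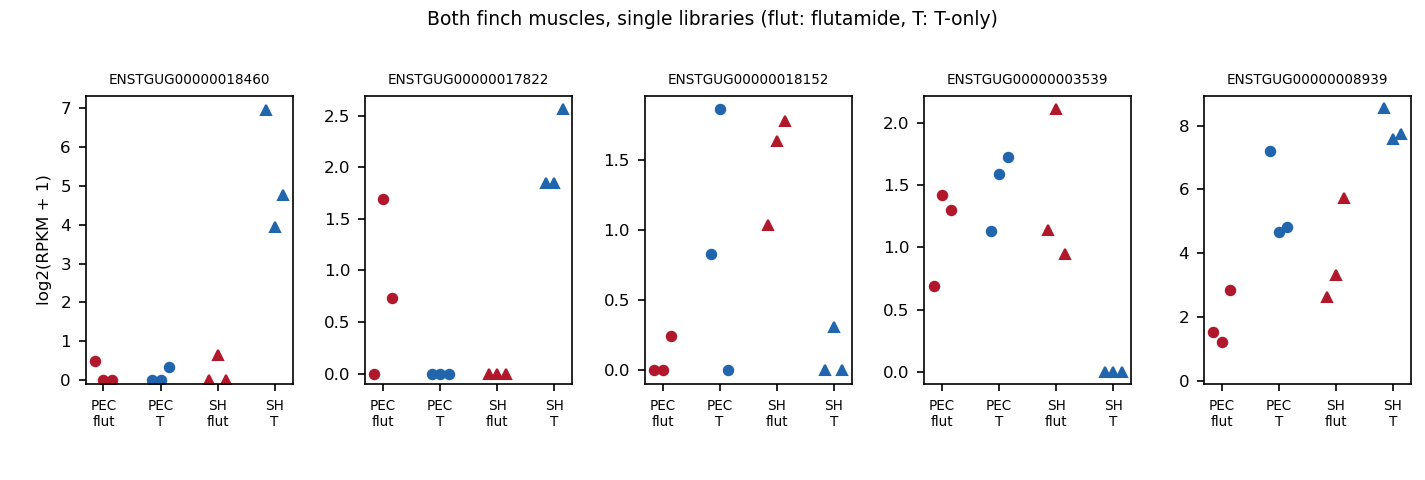
Each panel shows 1 gene in log2(RPKM + 1) with 1 point per library, in the order PEC flutamide, PEC T-only, SH flutamide and SH T-only (circles PEC, triangles SH; 3 birds in each). ENSTGUG00000018460 is high only in the SH T-only libraries, at 14.3 to 124 RPKM, while ENSTGUG00000008939 is lower in flutamide in both muscles.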

How the data were processed

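Poly(A)-selected, strand-specific libraries were made from total RNA, per the labels' protocols. The deposited values are RPKM per gene, 1 table per library, with Ensembl release 68 zebra finch identifiers, per the file headers. CASAVA, cutadapt and Bowtie 0.12.9 are named in the submitters' processing notes. Settings, genome build and counting method are not given in the sources used here, so identifiers of near-identical or overlapping genes may share reads.

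Library totals, gene lengths and reads were recovered as the whole numbers that give the deposited RPKM. All 136090 finch values gave whole reads (relative tolerance 3e-13). A length can be recovered at a fraction of its size where few libraries list the gene. Intervals and floors from reads cover counting error only. Replicates differed by far more than sampling noise (chi-square per degree of freedom 57.8 to 145 within PEC groups).

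Tests used limma 3.58.1 (R 4.3.3) with a pseudocount of 1, tested on simulated data, and Benjamini-Hochberg adjustment over all genes tested. The interaction fit held 12 libraries with 4 group means and genes at 1 RPKM or more in at least 3 of them. Library values were compared by exact permutation with scipy 1.17.1, and figures were drawn with matplotlib 3.10.9. Nothing says whether RNA of a bird was prepared in separate batches, so p-values measure the spread between these libraries. SH and PEC libraries of a number carry 1 bird code in the names of the deposited files, and such pairs deviated together (correlation of deviations from group means 0.283 to 0.370), so an alternative interaction fit had the bird as a block. Genes named are the 2 with the smallest p in each direction of each test, plus those said to be singled out. The comparison, gene lists and tests were chosen with earlier results of these data known. The gene lists could not be tested without symbols. The 12 manakin libraries were not used.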

Additional observations from a re-analysis of the deposited data

How the results depend on the processing

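The count of 0 genes called in PEC was obtained in 15 of 17 alternatives: other filters, median-ratio and quantile scaling, a pseudocount of 0.5, a mean-variance trend, limma-voom, a fit on all 12 finch libraries, any 1 library left out (0 to 0 genes) and both PEC libraries nearest to SH left out, the last chosen after seeing the data. With a pseudocount of 0.1, 2 genes were called, ENSTGUG00000017564 as higher and ENSTGUG00000013287 as lower in flutamide. The latter had the smaller limma adjusted p, at 0.00459, and its single values are not described here. With the replicate number as a replicate block, 5 genes were called, among them ENSTGUG00000017564, ENSTGUG00000001849, ENSTGUG00000018678 and ENSTGUG00000008939. Across genes, same-numbered flutamide and T-only libraries deviated from their group means with correlations of -0.09, -0.27 and -0.19. No library correlated best with its own number in the other group. Whether the number marks a batch that some genes share was not tested. The cause of these calls was not tested. Genes below an unadjusted p of 0.05 numbered 370 as reported, 647 with no filter, where more genes were tested, and 192 with the stricter filter, where fewer were. The interaction called 0 genes in 20 of 21 alternatives, and 3 with a pseudocount of 0.1. Its 738 genes below the unadjusted threshold became 347 with the stricter filter and 482 with limma-voom.

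The median difference in PEC ran from -0.13 to 0.06 with 1 library left out, within the spread of library medians inside groups (0.16). The share of RPKM in the most abundant genes differed by -0.124 percentage points as reported, 0.0604 for 10 genes and 0.302 for 50 genes, and by -1.81 to 1.30 with 1 library left out. The number of genes listed differed by -297 to 93.8 with 1 library left out. Depth limits ENSTGUG00000017564 and ENSTGUG00000018678, which rest on 24 and 32 reads in their higher groups. It also limits 3 genes of the interaction test. In their highest groups ENSTGUG00000017822 had 22 reads (SH T-only), ENSTGUG00000018152 had 21 (SH flutamide) and ENSTGUG00000003539 had 19 (PEC T-only).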

Other observations

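Of the 20 most abundant genes in PEC, 8 came from a run of 36 neighbouring identifiers, ENSTGUG00000018730 to ENSTGUG00000018765. The run was picked out after its values were seen and is therefore given with no test. Its ends were a choice, and the values below hold for these ends only. ENSTGUG00000018767, rank 19 of the 20 with a recovered length of 519 bases, lay just past the end and was not counted. Position and function were not available for these identifiers, so what the run holds was not examined. The run took 33.0%, 27.6% and 27.4% of all RPKM in the flutamide libraries, against 34.0%, 24.5% and 36.6% in the T-only libraries.

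Members differed by recovered length. Over its 15 longer members the median difference, flutamide minus T-only, was -0.07, close to the -0.05 over all 8343 genes tested. Its 21 short members, of 66 to 75 bases, had a median difference of -0.76. Of the 21, 18 were lower in flutamide, beside 56.6% of all genes tested. Members were read in the same 6 libraries, so they are not separate observations of the treatment. Together the short members took 1.13%, 1.65% and 1.36% of RPKM in flutamide, against 2.53%, 1.52% and 3.59% in T-only. T-only replicate 2 lay within the flutamide range, and the other T-only libraries lay above it. Without T-only replicate 2 the median of the short members was -1.25, with 18 of 21 lower. The longer members also moved with that library: without it their median was -0.34, with 15 of 15 lower. Over all genes the median was then 0.06, with 43.3% lower. The 39 other tested genes under 80 bases had a median difference of -0.13, with 21 of 39 lower.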
